A study of Homo sapiens with 29 samples.

Results

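The genes described here belong to the HLA class I antigen presentation pathway. They are the heavy chains HLA-B, HLA-E and HLA-F, the light chain B2M, the peptide transporter subunits TAP1 and TAP2, tapasin (TAPBP), the immunoproteasome subunits PSMB8 and PSMB9, and the transactivator NLRC5. These 10 genes, of 22439 named on the array, were taken by name as a list, without a threshold on their values, though earlier results of these data were known when the list was chosen. Each probe was named through the RefSeq accession printed beside it, which gave 17 probes for the 10 genes, and all 17 passed the filter on dim probes. They were measured in LHCN-M2 cells, a human skeletal myoblast line immortalized with telomerase and CDK4, transfected with 20 nM siRNA against the zinc finger factor ZNF148 (siZNF148) or with 20 nM nontargeting siRNA (siControl). Cells of both kinds were collected from growth media at 24 h (subconfluent), 48 h or 96 h (both confluent) and from differentiation (DIFF) media at 48 h or 96 h. Each of these 10 groups had 3 replicates, each on its own one-colour array, except siControl at 96 h in growth media, which had 2. In all, 29 arrays were used. All measurements are of this 1 line, and whether the siRNA was a single sequence or a pool on these arrays is not given in the sources used here.

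Class I molecules display peptides from inside the cell to cytotoxic T cells. Proteasomes cut cytosolic proteins, the TAP1 and TAP2 transporter carries the peptides into the endoplasmic reticulum, and tapasin holds the transporter beside an empty heavy chain and B2M until a peptide is bound. NLRC5 acts with RFX, CREB/ATF and NF-Y proteins at the promoters of these genes, and interferon raises the whole pathway through STAT and IRF proteins. Resting skeletal muscle fibres carry little class I on their surface, and it is well known as a feature of inflamed muscle.

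The promoters are shown first because the genes are described as a group under shared factors. RefSeq windows (GRCh38.p14, 250 bases before to 50 bases after each start site) were at hand for 8 of the 10 genes, in 10 windows. HLA-E and NLRC5 had none. Of the 10 genes, 8 lie on chromosome 6, while B2M is on chromosome 15 and NLRC5 on chromosome 16. Printed below, 5′ to 3′ along each gene, are the 250 bases before the start of 5 of them, chosen as a heavy chain, the light chain, the divergent pair TAP1 and PSMB9, and the peptide loading factor. Capitals mark the letters of 3 short motifs: the interferon response (ISRE) core, which is GAAA, any 2 bases and GAAA, the CCAAT box ATTGG and the CRE core TGACG, each on either strand.
HLA-B, chr6:31357180-31357429, minus strand: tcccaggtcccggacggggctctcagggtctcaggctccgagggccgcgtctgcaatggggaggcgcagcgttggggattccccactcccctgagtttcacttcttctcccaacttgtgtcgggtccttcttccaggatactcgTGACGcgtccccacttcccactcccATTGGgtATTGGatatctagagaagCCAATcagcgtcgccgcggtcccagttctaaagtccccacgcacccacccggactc
B2M, chr15:44711267-44711516, plus strand: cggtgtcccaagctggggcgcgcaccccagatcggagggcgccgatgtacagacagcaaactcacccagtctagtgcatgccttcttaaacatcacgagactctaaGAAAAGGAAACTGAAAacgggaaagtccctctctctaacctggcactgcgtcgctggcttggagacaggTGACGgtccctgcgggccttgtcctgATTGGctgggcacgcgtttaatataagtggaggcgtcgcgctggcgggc
TAP1, chr6:32853705-32853954, minus strand: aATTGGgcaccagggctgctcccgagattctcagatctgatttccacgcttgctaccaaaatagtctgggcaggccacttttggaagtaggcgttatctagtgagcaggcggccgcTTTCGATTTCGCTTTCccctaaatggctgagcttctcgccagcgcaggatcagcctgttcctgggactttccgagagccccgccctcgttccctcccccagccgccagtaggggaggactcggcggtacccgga
PSMB9, chr6:32853942-32854191, plus strand: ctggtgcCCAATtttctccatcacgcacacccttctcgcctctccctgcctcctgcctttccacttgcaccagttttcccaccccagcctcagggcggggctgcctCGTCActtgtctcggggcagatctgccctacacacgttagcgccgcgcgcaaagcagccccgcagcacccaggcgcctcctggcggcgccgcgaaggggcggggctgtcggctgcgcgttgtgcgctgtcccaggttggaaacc
TAPBP, chr6:33314079-33314328, minus strand: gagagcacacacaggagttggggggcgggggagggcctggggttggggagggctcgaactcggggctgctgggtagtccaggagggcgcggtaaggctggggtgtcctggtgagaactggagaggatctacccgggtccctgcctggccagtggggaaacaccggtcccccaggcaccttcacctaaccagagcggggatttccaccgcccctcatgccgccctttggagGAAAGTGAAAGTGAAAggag

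An ISRE core stood in a window of 6 of the 8 genes (HLA-F, B2M, TAP1, TAP2, TAPBP and PSMB8), where 3.57% of all 35116 windows of the same length held one. In B2M, TAP1 and TAPBP the capitals run on because 2 matches overlap. The CCAAT box was present for 5 genes (HLA-B, HLA-F, B2M, TAP1 and PSMB9), against 34.6% of all windows, and the CRE core for 5 (HLA-B, B2M, TAP2, PSMB8 and PSMB9), against 24.6%. The GAS motif TTCNNNGAA was found for TAP1 and PSMB8, in 1 window each (7.66% of all windows). The GC box GGGCGG was found for 5 genes (45% of all windows), and the G run GGGGGG for TAPBP alone of the 8 (18.8%). TAP1 and PSMB9 point away from each other with 487 bases between their starts, and the ISRE core lies on the TAP1 side of that stretch. Their printed windows overlap at the far end, and the CCAAT box counted for each is the same stretch of letters there. These matches describe the letters of each window and are not binding sites, and no binding was measured.

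**Figure D1:**
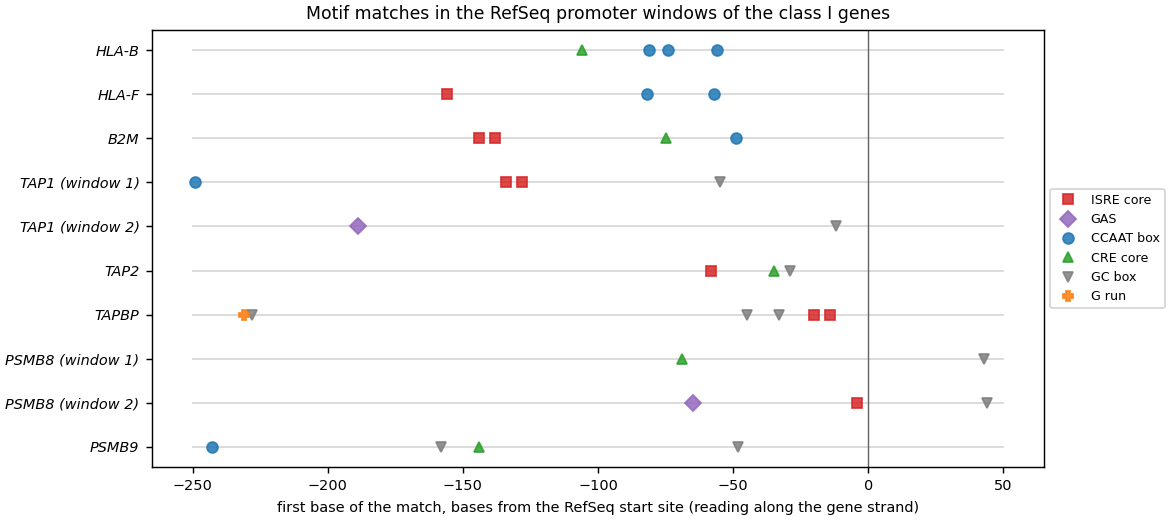
Matches to 6 short motifs in the 10 RefSeq promoter windows of 8 class I genes, by the distance in bases of the first matched base from the start site (x axis). HLA-B, HLA-F and B2M carry CCAAT box matches between 49 and 82 bases before the start, and ISRE cores stand in 6 windows.

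ZNF148 was measured first, as the check of the labels. Its log2 signal at 24 h was 8.62, 8.68 and 8.68 with siControl and 7.10, 7.29 and 7.02 with siZNF148. ZNF148 fell in all 5 comparisons of siZNF148 with siControl, with log2 changes of -1.53 (24 h), -2.08 (48 h) and -2.30 (96 h) in growth media and -2.34 (48 h) and -2.74 (96 h) in DIFF media, and its groups did not overlap. Between 41.6% and 56.5% of an array's probes were well above background. The 24 h arrays had a slide and a scan to themselves and the later ones filled the other 3 slides in a second scan, so 24 h cannot be told apart from its slide and scan. Arrays of 48 and 96 h shared slides and the scan. The myoblast marker MYOD1 was well above background on all 29 arrays, and PAX7 on 20. The summed level of 8 markers of differentiated muscle (log2 of the sum) was 7.95 to 8.31 with siControl and 7.85 to 8.04 with siZNF148 at 24 h, and 20.17 to 20.64 on every siZNF148 array from 48 h on. With siControl it was 11.36 to 19.14 at 48 h and 14.20 to 14.30 at 96 h in growth media, and 13.77 to 15.72 at 48 h and 18.03 to 18.25 at 96 h in DIFF media. The top of that range at 48 h in growth media was replicate 1, in which the muscle gene CKM stood at 16.03 while the lowest replicate of its group was at 5.83. That array also gave the lowest value of its group for 9 of the 10 class I genes. Among 5 leukocyte markers, CD3E was well above background on 11 of 29 arrays, while PTPRC had group means of 4.84 to 6.64. The summed leukocyte level was 10.72 to 11.21 with siControl and 9.35 to 9.44 with siZNF148 at 48 h in growth media, and 11.79 to 11.87 and 9.40 to 9.45 at 96 h. Over the other groups it was 8.40 to 9.18. These markers did not move together. CD14 fell at 48 h in growth media (10.84 to 7.34), at 96 h in growth media and at both hours in DIFF media, LAPTM5 rose in all 5 comparisons, by 1.23 to 2.99, and PTPRC, TYROBP and CD3E were not called in any. Of 5 fibroblast markers, TCF21 was well above background on 3 arrays, and the summed level was 16.02 to 17.23 in the confluent siControl cultures in growth media and 14.39 to 14.79 in the siZNF148 cultures. In DIFF media it was 15.93 to 17.07 and 14.08 to 14.72, and at 24 h 16.05 to 16.10 and 15.46 to 15.54. This sum is weighted to DCN, the brightest of the 5, with group means of 13.84 to 16.94. The fibroblast markers did not all move together either. At 24 h and at 48 h in growth media 1 of the 5 was higher and 2 were lower at the adjusted p. Of 4 endothelial markers, TEK (-4.22) and PECAM1 (-1.22) fell at 48 h in DIFF media. The summed level of the 4 was 8.33 to 8.76 with siControl and 7.32 to 7.72 with siZNF148 there, and 7.53 to 8.61 over the other groups. At 96 h 1 of the 4 was called lower in growth media, and 1 lower and 1 higher in DIFF media. None of them was called at 24 or 48 h in growth media. The part that any of these shifts has in the class I values was not tested. In whole cultures, fewer cells of a type and less RNA per cell cannot be told apart.

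Levels are the authors' quantile-normalized log2 intensities, and each gene is given by its brightest tested probe. Levels of different probes are not compared. A gene was called changed at an adjusted p under 0.05 (limma, Benjamini-Hochberg over all probes tested) and a change of more than 2-fold. In comparisons of siZNF148 with siControl, a gene that fell or rose was lower or higher than in siControl at the same hour and media. Across the 10 groups, the lowest mean of 9 of the 10 genes was that of siZNF148 at 48 h in DIFF media. HLA-E was the exception, with means within 0.31 of each other on the log2 scale. For the other 9 the range of group means was 1.91 (TAPBP) to 3.16 (TAP1). The highest mean was that of siControl at 96 h in DIFF media for HLA-F (15.99), B2M (16.99), TAP2 (10.53) and PSMB9 (13.23). TAP1 (15.01) and NLRC5 (7.58) were highest with siZNF148 at 96 h in growth media. Neighbours in such an order often did not differ beyond their spread. For B2M, the first 5 groups in order, from 16.99 to 16.58, each overlapped the next, and the siZNF148 cultures at 96 h in DIFF media followed, apart from them, at 16.05.

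**Figure D2:**
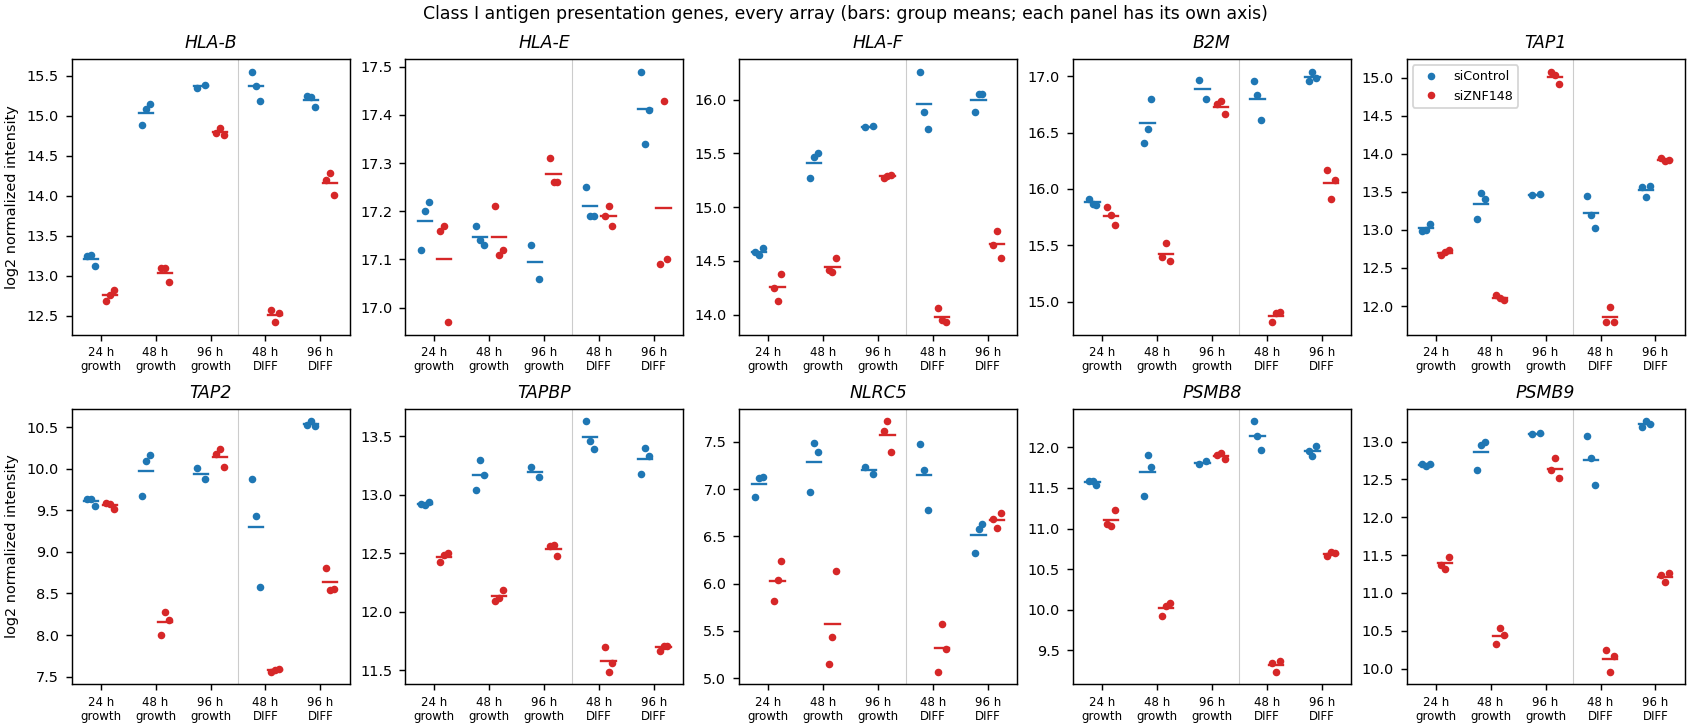
Log2 normalized intensity (y axis) of the 10 class I genes on every array, by hour and media (x axis), with siControl in blue and siZNF148 in red; horizontal bars are group means. At 48 h the siZNF148 arrays lie below every siControl array for 9 genes in both media, and TAP1 at 96 h in growth media lies above.

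At 48 h in growth media most of the 10 class I genes were lower with siZNF148. Of the 10 genes 8 fell and none rose, where 12.2% of the 18432 genes with a tested probe were called lower and 11.7% higher. The median change was -1.45 on the log2 scale, beside -0.05 over all genes. The arrays did not overlap for 9 of the 10, all lower, where 33.4% of all genes were lower without overlap. Among the heavy chains, HLA-B read 14.88, 15.08 and 15.15 with siControl and 13.10, 13.09 and 12.92 with siZNF148. Every siZNF148 array was well below every siControl array, and HLA-B fell 4.00-fold (log2 change -2.00, SE 0.0923, limma adjusted p = 2.93e-13). HLA-F had a log2 change of -0.97 (adjusted p = 9.08e-08), just inside 2-fold and not called, and HLA-E one of -0.01. B2M, the chain that every class I heavy chain pairs with, read 16.41, 16.53 and 16.80 with siControl and 15.40, 15.52 and 15.36 with siZNF148. It fell 2.23-fold, also without overlap (adjusted p = 2.09e-09).

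The peptide supply genes fell at the same time. PSMB9, a catalytic subunit of the immunoproteasome, read 12.63, 12.95 and 12.99 with siControl and 10.33, 10.54 and 10.44 with siZNF148. The groups were more than 2 log2 units apart, and its 5.37-fold fall was the largest of the 10 genes (log2 change -2.43, SE 0.123, adjusted p = 1.2e-12). PSMB8, its partner in the same particle, fell 3.18-fold (adjusted p = 1.48e-11). The transporter subunits fell 2.35-fold (TAP1, adjusted p = 5.31e-10) and 3.52-fold (TAP2, adjusted p = 1.06e-07). Tapasin (TAPBP) fell 2.05-fold (adjusted p = 2.84e-10), close to the threshold: its log2 change of -1.04 was -0.97 without siControl replicate 2. NLRC5 read 6.97, 7.49 and 7.39 with siControl and 5.15, 5.44 and 6.13 with siZNF148. Its siZNF148 arrays spread widely (SD 0.502) but did not reach the siControl arrays, and it fell 3.28-fold (adjusted p = 5.06e-07). With normexp background correction the log2 change of NLRC5 was -0.97 in place of -1.71 and was not called. Without siControl replicate 1, the array rich in muscle transcripts, 9 genes were called, HLA-F (-1.04) being added, as it also was without siZNF148 replicate 3 (-1.01).

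By the median of the 10 genes the fall was deepest at 48 h in DIFF media. There 9 of the 10 genes fell and none rose (17.2% of all genes were called lower and 15% higher). The median change was -1.91, beside -0.05 over all genes, and the 9 genes did not overlap between the groups (37.2% of all genes were lower without overlap). HLA-B was at 15.55, 15.37 and 15.18 with siControl and 12.57, 12.42 and 12.53 with siZNF148. No array came near the other group, and the fall was 7.26-fold (log2 change -2.86, SE 0.0923, adjusted p = 3.68e-16). PSMB8 was at 12.32, 12.14 and 11.97 with siControl and 9.35, 9.24 and 9.37 with siZNF148. It fell 7.07-fold, with the groups again wide apart (adjusted p = 1.22e-15). PSMB9 fell 6.23-fold (adjusted p = 8.68e-14), HLA-F 3.94-fold (adjusted p = 5.49e-13), B2M 3.78-fold (adjusted p = 2.17e-13) and TAPBP 3.76-fold (adjusted p = 5.34e-15). NLRC5 (3.57-fold, adjusted p = 1.08e-07) and the transporter genes TAP2 (3.29-fold, adjusted p = 1.29e-07) and TAP1 (2.58-fold, adjusted p = 3.19e-11) fell less than HLA-B. The NLRC5 change of -1.84 was -0.95, and not called, with normexp. TAP2 varied most among the siControl arrays, at 9.87, 9.43 and 8.58, and still lay above its siZNF148 arrays at 7.56, 7.58 and 7.59. Its fall was smaller here than at 48 h in growth media or at 96 h in DIFF media. Replicate 3 of siControl gave the lowest value of its group for all 10 genes, level with replicate 2 for HLA-E (17.19). Its muscle marker sum was also the lowest of that group, at 13.77 against 15.72 and 14.96 for replicates 1 and 2. By contrast, siControl replicate 1 at 48 h in growth media had the highest sum of its group. HLA-E had a log2 change of -0.02 by its brighter probe.

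At 24 h in growth media, where the muscle marker sums of both groups overlapped, 2 of the 10 genes fell and none rose (3.03% of all genes were called lower and 2.44% higher). The arrays did not overlap for 8 of the 10, all lower, against 27.7% of all genes. PSMB9 was at 12.70, 12.68 and 12.71 with siControl and 11.37, 11.32 and 11.48 with siZNF148. Replicates of both groups were tight, and the fall was 2.47-fold (log2 change -1.31, SE 0.123, adjusted p = 8e-08). NLRC5 was at 6.92, 7.12 and 7.13 with siControl and 5.82, 6.04 and 6.24 with siZNF148. Its 2.03-fold fall (adjusted p = 0.000807) stood at the edge of the threshold, and leaving out siControl replicate 2 (-0.99), siControl replicate 3 (-0.98) or siZNF148 replicate 1 (-0.92) took it inside 2-fold, as did normexp (-0.61). A further 5 genes passed the adjusted p without the fold, all lower: HLA-B (-0.46), PSMB8 (-0.46), TAPBP (-0.45), HLA-F (-0.33) and TAP1 (-0.32). Over all genes 16.7% were lower at the adjusted p alone. B2M (-0.12, adjusted p = 0.461), HLA-E by its brighter probe (-0.08) and TAP2 (-0.05) did not pass. The median over the 10 was -0.39, beside 0 over all genes.

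At 96 h in growth media the calls and the median change of the 10 genes were near those of all genes. TAP1 rose and no gene of the 10 fell (12.3% of all genes were called higher and 12.4% lower), and the median change was -0.04, beside -0.03 over all genes. The arrays did not overlap for any of the 10 genes, 5 of them lower (39.1% of all genes) and 5 higher (35.7%). TAP1 was at 13.46 and 13.47 with siControl and 15.08, 15.04 and 14.92 with siZNF148. The groups were well apart, and the rise was 2.92-fold (log2 change 1.55, SE 0.103, adjusted p = 9.52e-11). At the adjusted p alone, 4 genes were lower: TAPBP (-0.65, adjusted p = 1.16e-06), HLA-B (-0.57), PSMB9 (-0.47) and HLA-F (-0.46). Over all genes 30% were lower by that measure. The other 5, PSMB8 (0.08), HLA-E (0.18), TAP2 (0.20), NLRC5 (0.38) and B2M (-0.15), did not pass the test. PSMB8 was at 11.79 and 11.83 with siControl and 11.90, 11.93 and 11.85 with siZNF148, whereas at 48 h it had been 3.18-fold lower. The muscle marker sum was 20.19 to 20.23 with siZNF148 and 14.20 to 14.30 with siControl at that hour. This comparison rests on 2 siControl arrays.

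At 96 h in DIFF media 6 of the 10 genes fell and none rose (12.8% of all genes were called lower and 10.4% higher), with a median change of -1.15, beside -0.06 over all genes. The arrays did not overlap for 7 lower genes (37% of all genes) and for 1 higher, TAP1 (28.3%). PSMB9 was at 13.19, 13.27 and 13.23 with siControl and 11.24, 11.14 and 11.27 with siZNF148. That is a fall of 4.04-fold with narrow groups (log2 change -2.01, SE 0.123, adjusted p = 1.5e-11). TAP2 was at 10.52, 10.57 and 10.51 with siControl and 8.81, 8.54 and 8.55 with siZNF148. It fell 3.72-fold (adjusted p = 4.97e-08), TAPBP 3.04-fold (adjusted p = 2.43e-13), HLA-F 2.54-fold (adjusted p = 5.71e-10), PSMB8 2.40-fold (adjusted p = 8.16e-10) and HLA-B 2.05-fold (adjusted p = 5.08e-09). Without siZNF148 replicate 3 the change of HLA-B was -0.96, inside 2-fold. B2M (-0.94, adjusted p = 3.23e-08) lay just under the threshold and TAP1 (0.40, adjusted p = 0.000977) on the other side of 0. NLRC5 was at 6.33, 6.58 and 6.63 with siControl and 6.69, 6.59 and 6.75 with siZNF148, groups that overlapped (0.16, adjusted p = 0.571).

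**Figure D3:**
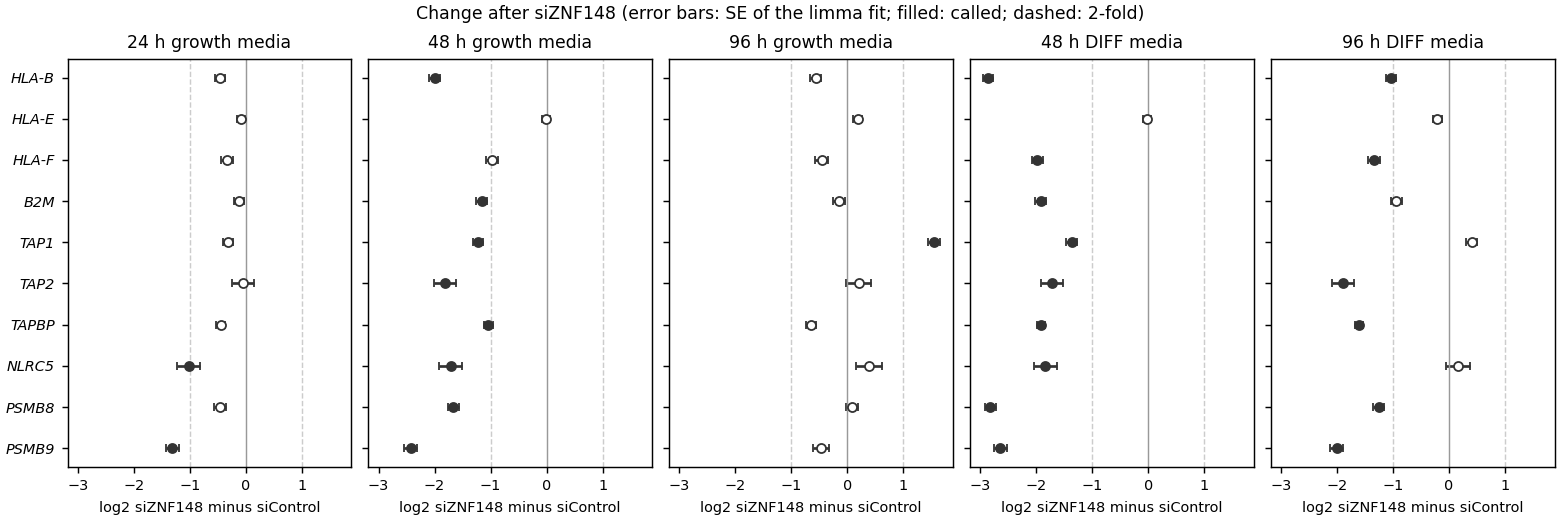
Log2 change of each class I gene, siZNF148 minus siControl (x axis), in the 5 comparisons, with the SE of the limma fit as error bars; filled points were called and dashed lines mark 2-fold. Filled points stand left of 0 for 8 genes at 48 h in growth media and 9 in DIFF media, and the one to the right is TAP1 at 96 h in growth media.

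The effects of siZNF148 were then compared with each other, as contrasts within the same fit. They share their arrays with the comparisons above. Between 24 and 96 h in growth media, 2 genes had a higher effect at 96 h (11.6% of all genes were called higher): TAP1, by 1.87 (SE 0.138, adjusted p = 9.91e-10), and NLRC5, by 1.40 (SE 0.311, adjusted p = 0.00109). At 48 h, 2 genes had a lower effect in DIFF than in growth media (9.01% of all genes were called lower): PSMB8, by -1.15 (adjusted p = 1.23e-06), and HLA-F, by -1.01 (adjusted p = 1.15e-05). The HLA-F difference fell inside 2-fold when any of 5 arrays was left out: in growth media siControl replicate 1 (-0.94) or siZNF148 replicate 3 (-0.97), and in DIFF media siControl replicate 1 (-0.86) or siZNF148 replicate 2 (-0.99) or 3 (-0.98). At 96 h, 4 genes had a lower effect in DIFF than in growth media (6.93% of all genes were called lower): TAP2, by -2.10 (SE 0.294, adjusted p = 1.73e-05), PSMB9, by -1.55 (adjusted p = 2.36e-06), PSMB8, by -1.34 (adjusted p = 1.01e-06), and TAP1, by -1.14 (adjusted p = 2.82e-06). The median over the 10 genes there was -0.92, beside -0.04 over all genes, and 9 of the 10 were lower at the adjusted p (17.4% of all genes). NLRC5 (-0.21, adjusted p = 0.698) was the other one. TAPBP was called too without siControl replicate 1 in DIFF media (-1.01). Hours in DIFF media run from the switch to those media, so an equal hour in growth and DIFF media may not be an equal time from transfection.

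Contrasts between 48 and 96 h were added after the values had been seen. In growth media the effect of siZNF148 was higher at 96 than at 48 h for 7 of the 10 genes (3.11% of all genes were called higher), from 1.00 for B2M to 2.78 for TAP1 (adjusted p = 2.28e-11). B2M stood at the threshold and fell inside 2-fold when any of 6 arrays was left out: siControl replicate 3 (0.89) or siZNF148 replicate 1 (0.99) or 3 (0.97) of 48 h, or siControl replicate 2 (0.92) or siZNF148 replicate 1 (0.99) or 2 (0.98) of 96 h. HLA-F (0.51), TAPBP (0.38) and HLA-E (0.18) were not called. Within the siZNF148 cultures themselves 7 genes rose from 48 to 96 h in growth media (4.13% of all genes were called higher), TAP1 7.49-fold, PSMB9 4.62-fold and HLA-B 3.38-fold. The arrays of the 2 times did not overlap for any of the 10, where 24.9% of all genes were higher without overlap. In DIFF media 7 genes also rose between these times with siZNF148 (4.35% of all genes were called higher), from 2.08-fold for TAP2 to 4.20-fold for TAP1. The log2 rise of TAP2 was 0.97 without siZNF148 replicate 1 of 96 h. The effect itself was higher at 96 h there for 4 genes, NLRC5 (2.00), HLA-B (1.82), TAP1 (1.77) and PSMB8 (1.56), where 8.09% of all genes were called higher. B2M (0.98) was called too without siControl replicate 3 of 48 h (1.07), or without siControl replicate 2 (1.00) or siZNF148 replicate 2 (1.05) of 96 h. ZNF148 with siZNF148 had a log2 difference of 0.00 between the same times in growth media and -0.03 in DIFF media.

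The siControl cultures also changed with time. From 24 to 48 h in growth media, also a contrast added later, HLA-B rose 3.54-fold and no other gene of the 10 was called (5.8% of all genes were called higher). It went from 13.25, 13.26 and 13.12 to 14.88, 15.08 and 15.15 (adjusted p = 1.54e-11), and B2M (0.70) and HLA-F (0.83) were also higher, inside 2-fold. With siZNF148 the 24 and 48 h means were 12.76 and 13.04 for HLA-B, 14.25 and 14.45 for HLA-F and 17.10 and 17.14 for HLA-E. Those of B2M, TAP1, TAP2, TAPBP, NLRC5, PSMB8 and PSMB9 were lower at 48 than at 24 h. The change of hour there is also a change of confluence, slide and scan, which cannot be told apart. Between DIFF and growth media none of the 10 genes was called by limma at 48 h (15.9% of all genes were called) or at 96 h (15.1%), and none by the methods' t test with the same fold. At an unadjusted p under 0.05 alone there were 6 at 48 h (55% of all genes) and 4 at 96 h (50.8%). At the adjusted p alone there were 5 at 48 h, HLA-F (0.54), PSMB8 (0.45), HLA-B (0.33) and TAPBP (0.32) higher in DIFF media (25% of all genes) and TAP2 (-0.68) lower (24.4%). At 96 h there were 3, TAP2 (0.59) and HLA-E (0.31) higher (21.4% of all genes) and NLRC5 (-0.69) lower (22.1%). The siControl cultures at 96 h in DIFF media, whose muscle marker sum of 18.03 to 18.25 was the highest of the siControl groups apart from 1 array, had B2M at 16.96, 17.04 and 16.98 and PSMB9 at 13.19, 13.27 and 13.23. Their log2 differences from growth media were 0.11 and 0.12, and neither passed the adjusted p.

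Several genes had more than 1 probe, and for some the probes went different ways. HLA-E has a bright probe that was nearly flat and a dimmer one that moved with the other heavy chains. At 24 h the dimmer probe was at 14.24, 14.26 and 14.30 with siControl and 13.59, 13.57 and 13.75 with siZNF148. It was lower there without overlap, as were 27.7% of all genes. By the dimmer probe, HLA-E at 48 h in growth media was at 14.41, 14.97 and 14.87 with siControl and 12.97, 13.06 and 13.07 with siZNF148. The groups were far apart, and it fell 3.28-fold (adjusted p = 2.1e-11), against a fold of 1.00 by the bright probe. At 48 h in DIFF media the dimmer HLA-E probe fell 7.77-fold (adjusted p = 1.23e-15), and at 96 h it had log2 changes of -0.06 in growth media and -0.71 in DIFF media. Over the 10 group means the 2 HLA-E probes had a Pearson r of 0.243. Which of them reports HLA-E was not settled here: heavy chains and their pseudogenes are alike in sequence, alleles differ, and a probe for one may also take up RNA of another.

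HLA-F, a nonclassical heavy chain, had probes with r = 0.932 over the 10 group means. Its dimmer probe fell at 24 h (2.71-fold, adjusted p = 7.44e-07), at 48 h in growth media (4.30-fold, adjusted p = 6.37e-10) and in DIFF media at 48 h (9.33-fold, adjusted p = 2.26e-13) and 96 h (3.25-fold, adjusted p = 1.13e-08). That probe was well above background on 1 of 3 siZNF148 arrays at 24 h and on 2 of 3 at 48 h in DIFF media. The folds of these 2 comparisons thus take in values near background. At 96 h in growth media that HLA-F probe was at 7.87 and 7.94 with siControl and 8.48, 8.47 and 8.40 with siZNF148, a log2 change of 0.54 where the brighter probe had -0.46. NLRC5 had a dimmer probe with r = 0.273 to the first. It was not called in any of the 5 comparisons, with log2 changes of 0.25 at 24 h and -0.87 at 48 h in growth media, so the fall of NLRC5 rests on 1 probe. The dimmer TAP2 probe was well above background on 2 of 29 arrays, and TAP2 is described by its other probe alone. Both HLA-B probes (r = 0.996) and all 3 TAPBP probes (r = 0.908 to 0.989) ran together.

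**Figure D4:**
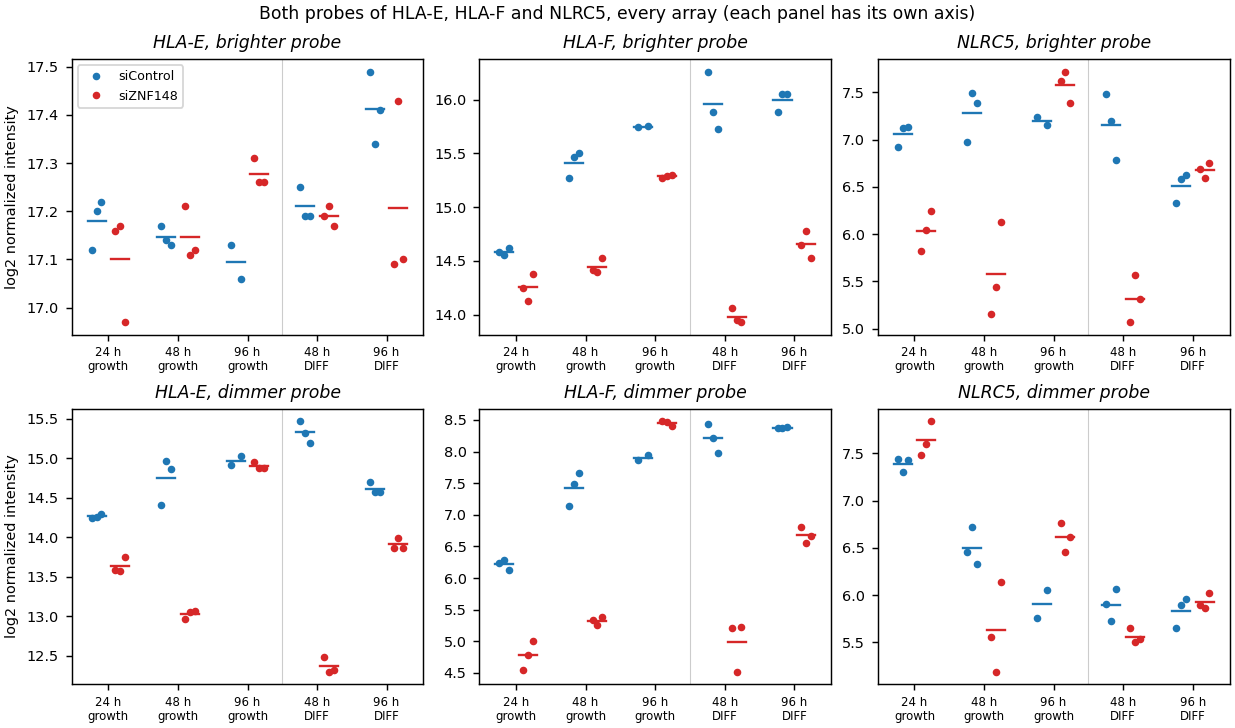
Log2 normalized intensity (y axis) of both probes of HLA-E, HLA-F and NLRC5 on every array, by hour and media (x axis), siControl in blue and siZNF148 in red; horizontal bars are group means. The brighter HLA-E probe stays between 16.97 and 17.49 while the dimmer one drops at 48 h in both media.

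TAP1 and PSMB9 share the stretch between their starts, and their changes were set side by side after the values had been seen. The change of TAP1 minus that of PSMB9 was 0.99 at 24 h, 1.19 at 48 h and 2.01 at 96 h in growth media, and 1.27 at 48 h and 2.42 at 96 h in DIFF media. In each of the 5 comparisons the within-array difference of TAP1 and PSMB9 did not overlap between the groups. How often other pairs of genes do the same was not counted. The exact two-sided permutation test gave p = 0.1. That is the smallest these designs allow, so the test cannot decide whether the changes of TAP1 and PSMB9 differ. Over the 10 group means the r of TAP1 and PSMB9 was 0.626. Of 12 interferon and NF-kB signalling genes, 2 rose at 96 h in growth media, a share close to the 12.3% of all genes called higher there. IRF9, the DNA-binding part of the complex that type I interferon forms, went from 10.23 to 12.18 there (log2 change 1.94, adjusted p = 2.12e-10). IRF9 also rose by 1.99 at 96 h in DIFF media, and had fallen at 24 h (-1.14) and at 48 h in DIFF media (-1.13). STAT2, another part of that complex, went from 13.62 to 15.13 at 96 h in growth media (log2 change 1.51, adjusted p = 6.21e-10). STAT2 fell at 48 h in DIFF media (-2.04) and had a change of 0.20 at 96 h there (adjusted p = 0.113). IFNAR1, a chain of the type I interferon receptor, fell in all 5 comparisons, with log2 changes of -1.68 at 24 h, -3.38 at 48 h in DIFF media and -2.38 at 96 h in growth media. Any link between these levels and those of TAP1 was not tested.

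**Figure D5:**
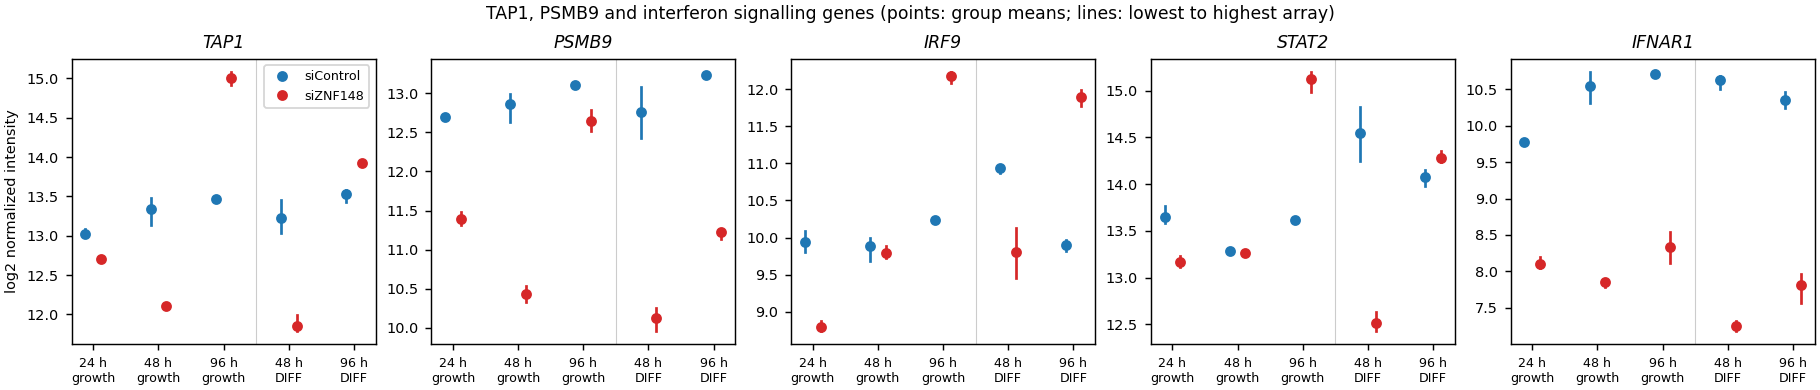
Log2 normalized intensity (y axis) of TAP1, PSMB9, IRF9, STAT2 and IFNAR1 by hour and media (x axis), siControl in blue and siZNF148 in red; points are group means and lines run from the lowest to the highest array. At 96 h TAP1 and IRF9 with siZNF148 stand above siControl in both media, whereas PSMB9 and IFNAR1 stand below.

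The rest of the pathway was taken from 6 lists of 34 genes, with values for those called at 96 h in growth media. The further heavy chains HLA-C and HLA-G had 0, 2 and 0 genes called lower in growth media (24, 48 and 96 h) and 2 and 1 in DIFF media (48 and 96 h), and none higher. Their median changes were -0.37, -1.25, -0.03, -2.07 and -0.87 in the same order. Over all genes 3.03%, 12.2%, 12.4%, 17.2% and 12.8% were called lower in that order, the shares to set beside the counts of each list. Of the 6 loading and trimming genes, 2 fell at 48 h and 2 at 96 h in growth media, and 3 and 2 in DIFF media. Both falls at 96 h in growth media were those of TAPBPL (-1.21, adjusted p = 3.71e-07), a tapasin-related peptide editor, and ERAP2 (-1.03, adjusted p = 1.99e-07), a peptidase that trims peptides in the endoplasmic reticulum. TAPBPL and ERAP2 were also called lower at 48 h and 96 h in DIFF media, by 2.19 and 2.07 on the log2 scale at 96 h.

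The third immunoproteasome subunit PSMB10 and the activator genes PSME1 and PSME2 had 1 call, lower, at 96 h in DIFF media (12.8% of all genes), and none in growth media. The constitutive subunits PSMB5, PSMB6 and PSMB7, whose places PSMB8, PSMB9 and PSMB10 take in the immunoproteasome, had all 3 genes higher at the adjusted p at 48 h in both media, with medians of 0.23 in growth media (26.7% of all genes were higher by that measure) and 0.95 in DIFF media (30%). PSMB5 in DIFF media (1.03) was the 1 call among them, where 15% of all genes were called higher. Among 8 promoter-binding factors, 1 was called lower at each hour in growth media and 2 in DIFF media, and none higher. At 48 and 96 h in growth media 1 of 8 is near the share of all genes called lower (12.2% and 12.4%). That share was 3.03% at 24 h, and 17.2% and 12.8% at 48 and 96 h in DIFF media. The call at 96 h in growth media was NFYA (-1.15, adjusted p = 7.94e-11), a subunit of the CCAAT-binding NF-Y complex. Of the 12 interferon and NF-kB signalling genes, 4, 1, 1, 4 and 2 were called lower in the same order. Over all genes 3.03%, 12.2%, 12.4%, 17.2% and 12.8% were, so 1 of 12 at 48 and 96 h in growth media is below the share. At 96 h 2 of the 12 were called higher in each media, where 12.3% (growth) and 10.4% (DIFF) of all genes were. Those called at 96 h in growth media were IFNAR1 (-2.38), IRF9 (1.94) and STAT2 (1.51).

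Across the 10 group means, the class I genes differed in how closely they ran together. The Pearson r between pairs of the 10 genes was 0.141 to 0.962, with a median of 0.772 over 45 pairs, and over the 36 pairs without HLA-E the lowest was 0.29, for TAP1 with TAPBP, and the median 0.818. HLA-E is taken here by its brighter probe. Each gene against the mean of the other 9 gave r = 0.974 for B2M, 0.947 for PSMB9 and 0.943 for PSMB8 at the top, 0.7 for TAP1 and 0.363 for HLA-E. The 5 other named genes closest to the mean profile of the 10 were HLA-J (0.966), HLA-C (0.965), TRIM22 (0.962), TRIM34 (0.957) and HLA-G (0.952). The 3 HLA genes among them are near copies of the heavy chains and may share RNA on the array. Farthest from it were HSD17B7 (-0.95), an enzyme of cholesterol synthesis, and SERBP1 (-0.949). These correlations run over groups on the same 29 arrays, with the same times and siRNAs behind them, and are given as a description.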

How the data were processed

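RNA of 29 LHCN-M2 cultures in 10 groups, assigned by the submitters' labels, was measured on one-colour Agilent arrays of 62976 spots (2075 controls). Per the file headers, Feature Extraction 10.7.3.1 read the scans, and the authors deposited each spot's background-subtracted intensity on a linear scale, with marks for spots well above background. They also deposited log2 values, quantile-normalized over all arrays, which are the values used here; each of the 29 columns matched its own array best (r of at least 0.9948). The planned default of scanner signals was tried as an alternative. Gene names came from RefSeq accessions (31104 of 58201 probes, 22439 genes) and positions from GRCh38.p14; 14 array headers name hg19 and 15 no build.

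Probes marked well above background on 2 or more arrays (38839) were fitted with limma 3.58.1 (lmFit and eBayes, R 4.3.3) with 10 group means, two-sided, with Benjamini-Hochberg adjustment. Spread between replicates sets the errors, and the number of arrays limits the precision. Each of 18432 genes is represented by its brightest tested probe. Known changes put into simulated data were used to check the procedure. Named genes were the 10 members, up to 3 called genes of each list with the largest changes at 96 h in growth media, and the 5 highest and 2 lowest in likeness. CKM, CD14, MYOD1, PAX7 and the other markers named come from the marker lists. The members and lists were chosen with earlier results of these data known, and some genes of the lists are not reported here. Alternatives were the scanner signals with quantile, 75th percentile or normexp scaling (offset 50, on median signals), no filter, a filter of 15 arrays, fewer arrays in the fit, trended and robust variances, a block for replicate number or for slide, single arrays left out, the methods' t test, no fold threshold and the mean of a gene's probes. The methods speak of a t test between paired samples, without saying how the samples were paired. Replicate numbers are shared between groups, but the samples of a number did not deviate together (r of -0.16 to 0.123), so no pairing was used.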

Additional observations from a re-analysis of the deposited data

Results flagged for a closer look

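Tested differences between effects of siZNF148 on the class I genes are the results to look at again. TAP1 had an effect 1.87 higher (log2) at 96 h than at 24 h in growth media, and NLRC5 one 1.40 higher (limma, contrasts of the same fit). The NLRC5 value is that of its brighter probe alone, and its probes had r = 0.273. At 48 h the effect on HLA-F differed by -1.01 and that on PSMB8 by -1.15 between DIFF and growth media. The HLA-F difference fell inside 2-fold when some single arrays were left out, to -0.86 without siControl replicate 1 in DIFF media. At 96 h the effects in DIFF media were lower by -1.14 for TAP1, -2.10 for TAP2, -1.34 for PSMB8 and -1.55 for PSMB9. The part of time since transfection in the contrasts between media was not tested, and 24 h cannot be told apart from its slide and scan.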

How the results depend on the processing

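The counts of called class I genes at 48 h in growth media (8) and in DIFF media at 48 h (9) and 96 h (6) stayed within 1.5 times under every alternative run, with ranges of 6 to 9, 8 to 9 and 5 to 9. At 24 h the count of 2 was 1 with normexp and with the mean of a gene's probes, and 7 with no fold threshold, all lower, as were 16.7% of all genes. Without the threshold the count was 5 at 96 h in growth media (main 1), 4 of them lower, as were 30% of all genes. Between media in siControl it was 5 at 48 h (25% of all genes were higher and 24.4% lower) and 3 at 96 h (21.4% and 22.1%), with 0 in the main fit. For differences between effects it was 4 at 96 against 24 h (main 2), 5 between media at 48 h (main 2) and 9 at 96 h (main 4). All 9 were lower, as were 17.4% of all genes, and the shares beside the 4 and the 5 are not given here. The effect difference of 96 against 24 h had 1 call with normexp and 1 with the mean of probes, and that between media at 48 h had 1 with 75th percentile scaling and 1 without siControl replicate 1 at 48 h in growth media. Leaving out 1 array gave 1 to 2 calls at 24 h, 7 to 9 at 48 h and 1 at 96 h in growth media, 9 and 5 to 6 in DIFF media, 0 between media, and 2, 1 to 2 and 4 to 5 for the differences between effects. With the replicate block the counts were 2, 8, 1, 9 and 6 in the 5 comparisons of siZNF148 with siControl, 0 and 0 between media, and 2, 2 and 4 for the differences between effects, so the pairing changed no count, and the same held with slide as a block. Averaging the probes turned the TAP2 effect difference between media at 96 h from -2.10 to 0.02, its difference between 96 and 48 h in growth media from 2.02 to -0.24, and the HLA-E difference between 96 and 48 h in DIFF media from -0.19 to 1.03. These averages take in the TAP2 probe near background and the second HLA-E probe. Of the 2050 values of single genes under alternatives, 1987 kept their side and direction. Scaling to the 75th percentile took TAPBP at 48 h in growth media (-0.98), HLA-B at 96 h in DIFF media (-0.88) and the TAP1 difference between media at 96 h (-0.98) inside 2-fold. Normexp did so for NLRC5 at 24 h (-0.61) and at 48 h in growth (-0.97) and DIFF media (-0.95). Probes near background limit what can be said of low levels. The second TAP2 probe was well above background on 2 of 29 arrays and the dimmer HLA-F probe on 26. Both NLRC5 probes were so on all 29, though their levels were low.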
